A study of Rattus norvegicus with 47 samples.

Results

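The kidneys compared here came from rats that had carried cobalt (Co) pellets for 12 months and from rats that had carried tantalum (Ta) pellets for the same time. They gave 8 Co libraries and 8 Ta libraries, 16 of the 47 libraries of the series, and every gene of the count table was taken. The remaining libraries, from kidneys with pellets of tungsten (W), aluminium (Al), lead (Pb) or depleted uranium (DU), entered the fit to help estimate the spread and are used for a few side-by-side values. There were 8 of them per metal except 7 for Pb. Each pellet was a cylinder 1 mm wide and 2 mm long, rats had been assigned to the metals at random, and tantalum is described as the inert metal. Every rat carried a pellet, so no kidney without an implant is among the groups. Strain, sex, age, the number of pellets and the kidney region taken are not given in the sources used here. Each library has its own animal number, C97 to C104 for Co and T73 to T80 for Ta, so the spread is that between animals. The numbers run in 1 block per metal, so handling order and metal cannot be told apart.

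Cobalt is an essential trace metal as the central atom of vitamin B12 (cobalamin). In excess, cobalt ions displace iron in the prolyl hydroxylases that mark hypoxia-inducible factors (HIF) for destruction. The stabilised factors then switch on genes of glycolysis, vessel growth and, in interstitial cells of the kidney, erythropoietin. Other known targets of cobalt ions are iron and heme metabolism, mitochondrial respiration and antioxidant defence. Gene lists for these themes, for the cell types of the kidney and for other tissues were read member by member.

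The libraries were of like depth, with 22804509 to 27319666 counts in Co and 23259750 to 35775818 counts in Ta, and levels are given as CPM, counts scaled to the size of the library. Kidney markers were present in both groups. The mean log2 CPM of 20 early proximal tubule markers was 7.40 to 9.36 in Co and 8.54 to 8.88 in Ta. That of 10 thick ascending limb markers was 6.99 to 7.98 in Co and 7.19 to 8.10 in Ta. Mitochondrially encoded genes took 22.2 ± 2.40% of counts in Co and 19.5 ± 2.52% in Ta (SD, n = 8 each). Principal components of log2 CPM over the 16 libraries showed that Co replicates 5, 6 and 7 stood apart, at 86.5 to 97.4 on the first component, against -31.6 to 34.2 for the other Co libraries and -83.8 to -12.1 for Ta. The same 3 libraries had the lowest Co means of podocyte markers (2.82 to 3.65, against 4.29 to 4.86 in the other Co libraries and 4.70 to 5.11 in Ta, mean log2 CPM). In whole kidney, fewer cells of a type and less RNA per cell cannot be told apart. Endothelial markers behaved likewise, with 3.04 to 3.44 in those 3 libraries, 4.09 to 5.15 in the other Co libraries and 4.75 to 5.15 in Ta. Markers of the late proximal tubule (S3) went the other way, with 7.07 to 7.43 in those 3 libraries, 6.10 to 6.95 in the other Co libraries and 5.05 to 6.62 in Ta. Ta replicate 4 lay at the far end of the first component and, with Ta replicates 5 and 6, had the highest Ta means of macrophage and dendritic markers (3.98 to 4.83, against 2.38 to 2.96 in the other Ta libraries). Calls of named genes that ended without Co replicates 5, 6 and 7, or without Ta replicates 4, 5 and 6, are stated with the result. Fits without Co replicates 5, 6 and 7 were chosen after their values were seen.

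**Figure D1:**
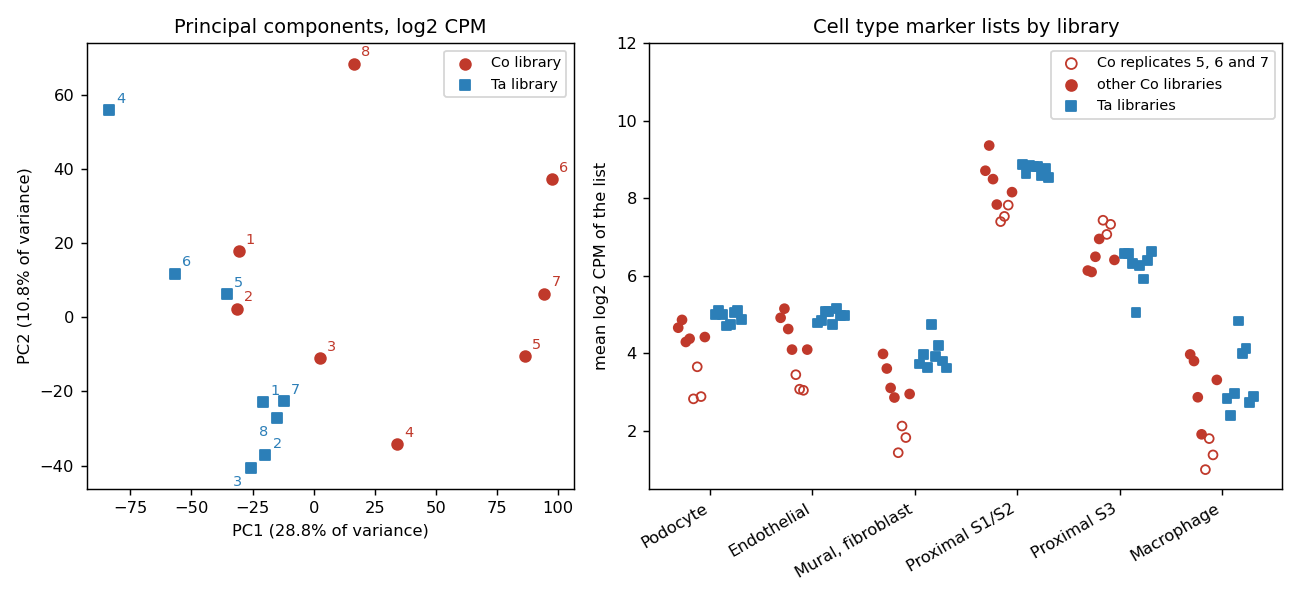
Left, the first and second principal components of log2 CPM over the 8 Co (circles) and 8 Ta (squares) libraries, numbered by replicate. Right, the mean log2 CPM of 6 marker lists in each library: Co replicates 5, 6 and 7 (open circles) lie lowest among Co for podocyte, endothelial and mural markers and highest for S3 markers.

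Against Ta, 4089 of 15868 tested genes differed in Co (25.8%) by edgeR's quasi-likelihood test at a Benjamini-Hochberg adjusted p of 0.05. Of these 2161 (13.6% of genes tested) were higher and 1928 (12.2%) lower, and 0.813% of genes tested were higher and 1.77% lower by over 2-fold. The changes were thus mostly small: the median log2 fold change was 0.44 among higher genes and -0.58 among lower genes, and -0.07 over all genes tested. Every Co library lay above every Ta library in 328 genes (2.07%) and below every Ta library in 90 genes (0.567%). Of the called genes 2402 (1514 higher and 888 lower) were called in each of the 16 fits that left out 1 library. The lower genes numbered 1234 without Ta replicate 6 and 1238 without Co replicate 5. Without Co replicates 5, 6 and 7 the test called 670 genes (4.15% of genes tested), 528 of them higher, and 654 of these genes were also called in the same direction with all libraries. Leaving out Ta replicates 4, 5 and 6 gave 1734 higher genes (10.8%) and 935 lower genes (5.81%).

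The genes with the smallest p among those higher in Co belong to several cell machines. Tmem256, a small membrane protein gene, had 45.7 to 80.6 CPM (median 61.1) in Co kidneys, against 26.0 to 41.7 CPM (median 29.4) in Ta kidneys. On the log2 scale the change was 1.01 ± 0.11 (± SE throughout; adjusted p = 5.64e-08). Tomm7, a subunit of the pore that imports proteins into mitochondria, had 56.6 to 70.6 CPM (median 61.2) in Co kidneys, against 24.99 to 44.2 CPM (median 30.7) in Ta kidneys, with a log2 fold change of 1.01 ± 0.12 (adjusted p = 3.50e-07). In both genes the 8 Co libraries lay above the 8 Ta libraries without overlap. The other 8 genes with the smallest p also had no overlap. They were the respiratory genes Cox7c (0.91) and Ndufa1 (0.85), the proteasome genes Sem1 (0.93) and Psmb7 (0.60), and the RNA polymerase subunit gene Polr2l (0.93). Cops9 (0.77), a subunit of the COP9 signalosome, and the splicing factor genes Bud31 (0.73) and Txnl4a (0.65) completed them. All 10 kept their call without Co replicates 5, 6 and 7, and in a fit adjusted for the balance of small and large proteins that is described further on.

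Among genes lower in Co with the smallest p, Cd2ap, a scaffold of the podocyte slit diaphragm that other kidney cells also make, had 42.3 to 53.8 CPM (median 49.7) in Co kidneys, against 62.3 to 83.9 CPM (median 77.1) in Ta kidneys (log2 fold change -0.64 ± 0.10, adjusted p = 2.23e-05). Rock2, a kinase that drives actomyosin contraction, had 20.6 to 43.1 CPM (median 28.5) in Co kidneys, against 44.6 to 71.3 CPM (median 52.4) in Ta kidneys (log2 fold change -0.80 ± 0.14, adjusted p = 0.000123). The groups did not overlap in either gene. Plod2, which hydroxylates lysines of collagen, had 4.99 to 18.4 CPM (median 14.5) in Co kidneys, against 21.5 to 29.7 CPM (median 27.4) in Ta kidneys, again without overlap (log2 fold change -1.06 ± 0.19, adjusted p = 8.72e-05). Its 3 lowest values were those of Co replicates 5, 6 and 7, and without them the log2 fold change was -0.69 (adjusted p = 0.00756). The transcription repressor gene Zbtb7a (-0.73), the histone acetyltransferase gene Kat6a (-0.79), Ralgapb (-0.68) and the transcription kinase gene Cdk13 (-0.37) were likewise lower without overlap. Fam172a (-0.93), Camsap2 (-0.90), which caps microtubule minus ends, and Proser1 (-0.66) fell with 7, 7 and 6 of 8 Co libraries below every Ta library. These 10 genes kept their call without Co replicates 5, 6 and 7. In the fit adjusted for the balance Rock2 (-0.47, adjusted p = 0.0594) and Camsap2 (-0.42, 0.0535) lost it and the other 8 kept it.

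**Figure D2:**
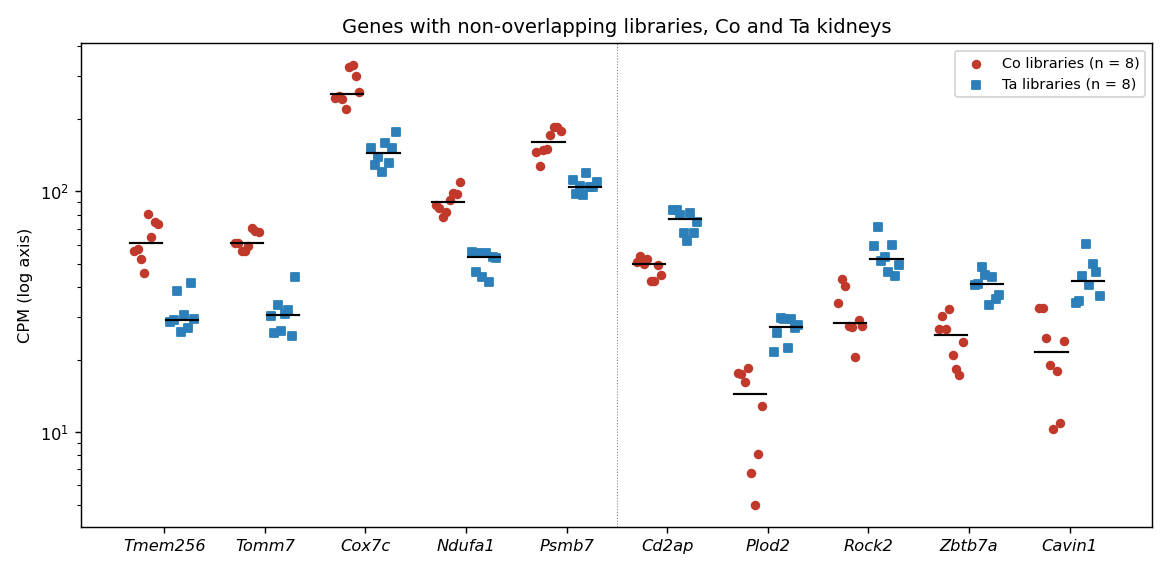
CPM on a log axis of 5 genes higher and 5 genes lower in Co, with 1 point per library (circles Co, squares Ta, 8 each) and bars at the medians. In all 10 genes the Co and Ta libraries do not overlap, and Co replicates 5, 6 and 7 hold the lowest values of Plod2.

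By size of change among genes without overlap, Doc2g was first among those higher, at 5.41 to 11.3 CPM (median 7.32) in Co kidneys, against 0.931 to 4.54 CPM (median 3.29) in Ta kidneys (log2 fold change 1.33 ± 0.29). Next came Rps29 (1.28), Ndufa3 (1.25), Rps21 (1.07), Rps28 (1.06), Ten1 (1.05), a telomere capping gene, the mitochondrially encoded ND3 (1.03) and Atp5me (1.01), a subunit of ATP synthase. Reads of ribosomal protein genes and of mitochondrial genes can be shared with copies elsewhere in the genome, and how such reads were counted is not given, so these sizes are uncertain. The largest falls without overlap were those of Clic5, a chloride channel protein of podocyte foot processes and endothelium (-1.22), and the cell cycle factor gene E2f2 (-1.21). Both depended on single libraries: Clic5 had an adjusted p of 0.0581 without Co replicate 5, 0.0561 without Co replicate 6, 0.0560 without Co replicate 7 and 0.0511 without Ta replicate 2, and E2f2 one of 0.0623 without Co replicate 5. Mitf (-1.14 ± 0.21), a transcription factor of lysosome genes, and Ocrl (-1.06 ± 0.20), the phosphatase gene mutated in the tubular disease Lowe syndrome, kept their calls in all fits without 1 library. So did Atp10d (-1.05), Tmem151b (-1.04), Igsf3 (-1.03), the caveolar coat gene Cavin1 (-1.01) and Slfn5 (-1.002). Ocrl had 1.83 to 6.72 CPM (median 3.79) in Co kidneys, against 6.95 to 11.5 CPM (median 8.49) in Ta kidneys. Without Co replicates 5, 6 and 7 the adjusted p-values of Clic5, E2f2, Ten1, Atp10d, Tmem151b and Slfn5 were 0.321, 0.235, 0.0783, 0.0538, 0.0939 and 0.0723, and the other genes of this paragraph kept their call. Without Ta replicates 4, 5 and 6 Clic5 was at 0.0642 and E2f2 at 0.0649. In the fit adjusted for the balance Doc2g, Ndufa3, Atp5me, Ocrl, Atp10d and Cavin1 were still called. Rps29, Rps21 and Rps28 are ribosomal protein genes, which make up part of that balance, so their result in that fit is not read.

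The nuclear genes of the respiratory chain and ATP synthase rose together. Of 76 such genes tested 68 were higher in Co and 0 lower, with a median log2 fold change of 0.55. In 45 of them every Co library was above every Ta library, and 65 were called in every fit without 1 library. Over all 15868 genes tested, 13.6% were higher and 2.07% had every Co library above every Ta library. Of those 15868 genes 1514 were called higher in every fit without 1 library. In complex I, which takes electrons from NADH, 35 of 37 genes rose (94.6%), in complex III, which hands them to cytochrome c, 7 of 9, in complex IV, cytochrome c oxidase, 11 of 11, and in ATP synthase 14 of 15. In complex II, which is shared with the citric acid cycle, 1 of 4 rose, the iron-sulfur subunit gene Sdhb. Ndufa1, an accessory subunit of complex I, had 78.5 to 109 CPM (median 90.0) in Co kidneys, against 42.2 to 56.1 CPM (median 53.2) in Ta kidneys (log2 fold change 0.85 ± 0.11, adjusted p = 2.25e-06). Uqcr11, of complex III, had 201 to 234 CPM (median 216) in Co kidneys, against 99.8 to 162 CPM (median 137.2) in Ta kidneys (log2 fold change 0.67 ± 0.12, adjusted p = 0.000152). Cox6a1, of complex IV, had 537 to 602 CPM (median 572) in Co kidneys, against 322 to 475 CPM (median 394) in Ta kidneys (log2 fold change 0.54 ± 0.09, adjusted p = 3.57e-05). None of these 3 genes overlapped between groups, and the Co libraries were the tighter group in Uqcr11 and Cox6a1. The Co and Ta libraries of Atp5mc2, a rotor ring gene of ATP synthase, were likewise apart, with 396 ± 48.0 CPM in Co kidneys and 262 ± 24.3 CPM in Ta kidneys (SD, n = 8 each). Further genes with smallest p in their lists were Ndufa3, Ndufa12 (0.72) and Ndufs5 (0.67) of complex I, Uqcrh (0.73) and Uqcrq (0.75) of complex III, Cox7c of complex IV and Atp5f1e (0.80) and Atp5me of ATP synthase. Sdhb had a log2 fold change of 0.40 ± 0.10 (adjusted p = 0.00300).

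Not every subunit gene rose. Ndufs1 of complex I, Uqcrfs1 and Uqcrc2 of complex III and Atp5f1a of ATP synthase did not pass the test, with log2 fold changes of 0.07, 0.23, 0.09 and 0.27; they are named because they are the exceptions. Ndufs6, of complex I, did not pass either, but it was near 0 in every library (0 to 0.371 CPM in Co and 0 to 0.570 CPM in Ta) and a change was not detectable at this depth. Of the 13 mitochondrially encoded genes 6 rose and 0 fell, with a median log2 fold change of 0.36. The number higher was 3 without Co replicate 6 and 10 without Ta replicate 7. ND3 had 1501 to 2758 CPM (median 2371) in Co kidneys, against 862 to 1501 CPM (median 1037) in Ta kidneys, with the lowest Co library (1501.4) at nearly the same level as the highest Ta library (1501.3). ND6 (0.81 ± 0.17, adjusted p = 0.000638) and ATP6 (0.55 ± 0.16, adjusted p = 0.00883) had 4 of 8 Co libraries above every Ta library. ND3 kept its call when Co replicates 5, 6 and 7 were left out, while ND6 was at 0.0627 and ATP6 at 0.299.

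These rises remained in part under the other fits. In the fit without Co replicates 5, 6 and 7, 15 of 37 complex I genes, 3 of 9 complex III genes, 9 of 11 complex IV genes and 7 of 15 ATP synthase genes were higher, where 3.27% of all genes tested were. Adjusted for the balance of small and large proteins, the counts were 12, 3, 6 and 5, where 1.78% of all genes were called higher. The medians stayed at 0.41, 0.44, 0.38 and 0.41 on the log2 scale in that fit. Sdhb was called in neither of these fits (0.115 and 0.0658). The rise over Ta was not particular to Co. Cox7c had log2 fold changes over Ta of 0.91 in Co, 0.59 in W, 1.31 in Al, 1.80 in Pb and 1.15 in DU. Ndufa1 had 0.85, 0.55, 1.22, 1.70 and 1.19 in that order, and these comparisons share the Ta libraries. Against the mean of the other tested metals, 0 genes of complexes I, III and IV and ATP synthase were called. The median log2 differences were then -0.05, -0.12, -0.09 and -0.12.

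Calls among genes of small ribosomal and proteasome proteins and among genes of large chromatin and ligase proteins went opposite ways. Their shares stand beside 13.6% higher and 12.2% lower over all genes tested. Of 72 cytosolic ribosomal protein genes 69 rose (95.8%, median log2 fold change 0.50), and so did 14 of 14 genes of the proteasome core, the protease that degrades tagged proteins (median 0.46). Rpl41 had 326 to 587 CPM (median 437) in Co kidneys, against 189 to 252 CPM (median 235) in Ta kidneys (log2 fold change 0.95 ± 0.13, adjusted p = 4.61e-06). Psmb5, the chymotrypsin-like subunit of the proteasome, had 119.7 to 161 CPM (median 135.4) in Co kidneys, against 85.8 to 101.6 CPM (median 95.7) in Ta kidneys (log2 fold change 0.53 ± 0.08, adjusted p = 2.42e-05). Neither gene overlapped between groups, while Rpl38 (1.26 ± 0.19) had 7 of 8 Co libraries above every Ta library. Of 20 large chromatin regulators 8 fell (40.0%) and 0 rose, led by Arid1b, a subunit of a chromatin remodelling complex, at 52.5 ± 6.37 CPM in Co kidneys and 71.5 ± 7.37 CPM in Ta kidneys (SD, n = 8 each; log2 fold change -0.44 ± 0.10, adjusted p = 0.00102). The count was 5 without Co replicate 6, where 1300 of 15855 genes tested were lower. Arid1b was at 0.0568 without Co replicates 5, 6 and 7. Rpl41, Rpl38 and Psmb5 kept their call in that fit. Of 10 giant ubiquitin ligases 4 fell (40.0%), and 1 fell without Ta replicate 2, where 1300 of 15858 genes tested were lower.

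A balance was read in each library as the mean log2 CPM of the 72 ribosomal protein genes minus that of the 30 genes of the chromatin and ligase lists. It was 1.81 to 2.60 (median 2.22) in Co and 1.01 to 1.80 (median 1.44) in Ta, so the groups did not overlap. In the other metals it ran from 1.46 to 2.20 in W, 1.81 to 2.996 in Al, 2.63 to 4.01 in Pb and 2.00 to 2.97 in DU. Its part in the other differences was not tested beyond its use as a covariate. With it as a covariate 520 genes differed between Co and Ta (3.28% of genes tested), 283 higher (1.78%) and 237 lower (1.49%). Of these 390 were called in the same direction without it, 259 of them higher, and 0 in the opposite one. The balance differs between the metals, so this fit also takes out differences that go with the metal. The balance is made of the ribosomal, chromatin and ligase genes, so the loss of their own calls in this fit is built in and no count is read from it. Of the proteasome genes, which are not part of it, 2 of 14 were higher.

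Some genes of protein folding rose, for the mitochondrion, the cytosol and the endoplasmic reticulum (ER), where 13.6% of all genes tested were higher. Of 12 mitochondrial chaperones and proteases 7 rose (58.3%). Clpp, a matrix protease, had 72.7 ± 12.5 CPM in Co kidneys and 44.3 ± 6.60 CPM in Ta kidneys, and Grpel1, a cofactor of the matrix chaperone mortalin, had 125.1 ± 11.3 CPM in Co kidneys and 90.0 ± 12.3 CPM in Ta kidneys (SD, n = 8 each). Their log2 fold changes were 0.71 ± 0.11 (adjusted p = 2.33e-05) and 0.48 ± 0.08 (adjusted p = 9.96e-05), and that of the protease gene Htra2 was 0.40 ± 0.08. Clpp and Grpel1 kept their calls with the balance as a covariate. Of 15 cytosolic heat shock genes 5 rose, among them Hspa8, the constitutive HSP70, with 2233 to 4626 CPM (median 2731) in Co kidneys, against 1887 to 2274 CPM (median 2026) in Ta kidneys (log2 fold change 0.55 ± 0.14, adjusted p = 0.00446). Dnaja1 (0.45 ± 0.12) and Hsp90ab1 (0.31 ± 0.08) rose too. When Co replicates 5, 6 and 7 were left out, these 3 genes had log2 fold changes of 0.26, 0.26 and 0.20 and adjusted p-values of 0.286, 0.229 and 0.204.

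When misfolded proteins gather in the ER, the unfolded protein response raises chaperone genes whose promoters carry the ER stress element. Of 20 listed ER genes 7 rose and 1 fell. A search for the element, read as CCAAT, any 9 bases and CCACG on either strand, in RefSeq promoter windows of build GRCr8 (250 bases before to 50 after the start of the gene) found it in 22 of 33469 windows (0.0657%). Among the ER genes tested 17 had a window, and 7 of those held the element. These were 4 of the 6 genes that rose (Hspa5, Hsp90b1, Calr and Creld2) and 3 of the 10 that did not pass the test (Xbp1, Canx and Dnajc3). The list itself is of genes known for this response, so this share describes the list and not the response to cobalt. The windows of the 4 genes that rose are shown, 5′ to 3′ on the strand of the gene, with the element in capitals; in Calr and Creld2 it lies on the opposite strand, and in Hsp90b1 once on each strand.
Hspa5 (chr3:38452766-38453065, plus strand): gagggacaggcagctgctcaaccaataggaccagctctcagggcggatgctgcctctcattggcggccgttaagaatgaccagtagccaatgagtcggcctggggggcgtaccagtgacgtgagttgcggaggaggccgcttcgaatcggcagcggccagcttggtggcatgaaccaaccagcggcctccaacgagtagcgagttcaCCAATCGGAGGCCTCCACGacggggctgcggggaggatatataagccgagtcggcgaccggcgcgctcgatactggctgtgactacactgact
Hsp90b1 (chr7:23012244-23012543, minus strand): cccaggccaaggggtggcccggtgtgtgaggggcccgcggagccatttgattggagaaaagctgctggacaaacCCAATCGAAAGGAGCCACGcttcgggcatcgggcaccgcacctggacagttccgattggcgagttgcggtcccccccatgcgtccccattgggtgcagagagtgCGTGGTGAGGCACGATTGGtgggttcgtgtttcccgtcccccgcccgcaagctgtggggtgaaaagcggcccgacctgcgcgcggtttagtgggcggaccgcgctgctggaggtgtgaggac
Calr (chr19:40213117-40213416, plus strand): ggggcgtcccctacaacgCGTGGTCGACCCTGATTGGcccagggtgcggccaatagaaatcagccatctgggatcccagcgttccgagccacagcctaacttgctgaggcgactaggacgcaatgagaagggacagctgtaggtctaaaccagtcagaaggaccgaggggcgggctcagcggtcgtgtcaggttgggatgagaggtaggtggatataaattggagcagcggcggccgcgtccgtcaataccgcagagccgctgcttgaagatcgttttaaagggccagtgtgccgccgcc
Creld2 (chr7:121789134-121789433, plus strand): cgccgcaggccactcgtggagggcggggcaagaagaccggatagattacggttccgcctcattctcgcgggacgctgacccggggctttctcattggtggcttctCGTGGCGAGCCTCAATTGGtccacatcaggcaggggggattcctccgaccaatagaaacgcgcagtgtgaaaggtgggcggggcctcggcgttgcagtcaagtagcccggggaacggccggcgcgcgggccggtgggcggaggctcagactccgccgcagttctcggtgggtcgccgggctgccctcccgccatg

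Creld2, an ER chaperone of the disulfide isomerase kind, had 40.6 to 65.8 CPM (median 57.3) in Co kidneys, against 31.7 to 47.7 CPM (median 33.6) in Ta kidneys (log2 fold change 0.64 ± 0.13, adjusted p = 0.000308). Manf, a secreted ER stress protein with no window in the table, had 60.5 to 88.9 CPM (median 73.1) in Co kidneys, against 42.1 to 56.4 CPM (median 48.9) in Ta kidneys, without overlap (log2 fold change 0.60 ± 0.13, adjusted p = 0.000800). The main ER chaperones, chosen here for their promoters after their values were seen, had smaller rises. Hspa5 (BiP), the master chaperone, had 507 to 739 CPM (median 547) in Co kidneys, against 438 to 501 CPM (median 476) in Ta kidneys, without overlap (log2 fold change 0.32 ± 0.09, adjusted p = 0.0107). Hsp90b1 and the lectin chaperone gene Calr were higher by 0.32 ± 0.08 and 0.26 ± 0.08. Xbp1, the transcription factor of this response, had a log2 fold change of 0.03 ± 0.08, and Canx and Dnajc3 had -0.19 ± 0.09 and 0.15 ± 0.11. Sel1l, of the machinery that sends misfolded proteins out of the ER, fell (-0.56 ± 0.16, adjusted p = 0.00959). In the absence of Co replicates 5, 6 and 7, Creld2 (adjusted p = 0.0336) and Manf (0.0269) were called higher, while Hspa5 (log2 fold change 0.14, adjusted p = 0.397), Hsp90b1 (0.16, 0.267) and Calr (0.16, 0.287) were not. In the integrated stress response 2 of 13 genes rose (15.4%), near the 13.6% of all genes tested. They were the transcription factor genes Ddit3 (0.52 ± 0.13, adjusted p = 0.00416) and Atf4 (0.54 ± 0.16, adjusted p = 0.0136). With the balance as a covariate neither was called (log2 fold change 0.20 and 0.01). With the 3 Co libraries left out Ddit3 was at 0.0448, Atf4 at 0.183 and Sel1l at 0.271.

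The hypoxia-inducible genes, the textbook response to cobalt ions, did not move as a group. Of 18 tested targets other than glycolytic enzymes 2 rose (11.1%) and 1 fell (5.56%), with a median log2 fold change of -0.07, against 13.6%, 12.2% and -0.07 over all genes tested. Vegfa, the vessel growth factor, had 130.6 to 173 CPM (median 148) in Co kidneys, against 105 to 211 CPM (median 162) in Ta kidneys (log2 fold change -0.15 ± 0.15, adjusted p = 0.485), with the ranges overlapping. Adm, adrenomedullin, had 1.23 to 10.3 CPM (median 6.37) in Co kidneys, against 6.98 to 12.6 CPM (median 8.43) in Ta kidneys (log2 fold change -0.50 ± 0.26, adjusted p = 0.140). Egln3, the prolyl hydroxylase gene that HIF itself induces, had 0.874 to 7.46 CPM (median 2.93) in Co kidneys, against 3.35 to 7.84 CPM (median 5.76) in Ta kidneys (log2 fold change -0.57 ± 0.31, adjusted p = 0.168). The Co values of Adm and Egln3 thus reached lower than those of Ta and none lay above the Ta range. Bnip3 (0.09 ± 0.09), a mitophagy receptor, Egln1 (0.11 ± 0.07), Ankrd37 (0.40 ± 0.22) and Ndrg1 (-0.41 ± 0.18) did not pass the test either. Epo, erythropoietin, was too low to be tested: it was at 0 in 7 of 8 Co libraries and in 7 of 8 Ta libraries, with 0.223 CPM in Co replicate 2 and 0.107 CPM in Ta replicate 4. The carbonic anhydrase gene Car9 was not tested.

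The 2 targets that rose were Higd1a, a small protein of the respiratory supercomplexes, and Ddit4, an inhibitor of mTOR signalling. Higd1a had 18.5 to 31.5 CPM (median 23.3) in Co kidneys, against 7.49 to 19.8 CPM (median 14.9) in Ta kidneys (log2 fold change 0.76 ± 0.14, adjusted p = 0.000177), with 6 of 8 Co libraries above every Ta library. Ddit4 had 31.5 to 54.4 CPM (median 41.6) in Co kidneys, against 18.1 to 35.1 CPM (median 27.1) in Ta kidneys (log2 fold change 0.65 ± 0.17, adjusted p = 0.00439), with 7 of 8 above every Ta library. Under the balance as a covariate their adjusted p-values were 0.0692 and 0.144, and without Co replicates 5, 6 and 7 0.0246 and 0.0738. Kdm3a, a histone demethylase gene, was lower (-0.24 ± 0.09, adjusted p = 0.0446), and its call ended in 12 of the 16 fits without 1 library (adjusted p up to 0.137, without Ta replicate 1). Of 18 glycolytic genes 2 rose (11.1%) and 1 fell (5.56%), against 13.6% and 12.2% of all genes tested. Gapdh (0.22 ± 0.08) and Gpi (0.19 ± 0.07) rose and Pfkp (-0.38 ± 0.13) fell, with adjusted p-values of 0.0365, 0.0316 and 0.0230, and all 3 lost the call without Co replicate 5 (0.0679, 0.0527 and 0.0594). Without Co replicate 6 they were at 0.0803, 0.0759 and 0.0559. Gapdh was also at 0.0897 and Pfkp at 0.0697 without Co replicate 7, and Pfkp at up to 0.0722 without Ta replicates 3, 6 or 8 in turn. In the fit without Co replicates 5, 6 and 7 Gapdh, Gpi, Pfkp and Kdm3a were at 0.466, 0.298, 0.413 and 0.319, and in that without Ta replicates 4, 5 and 6 at 0.0626, 0.0769, 0.0797 and 0.161. Ldha, lactate dehydrogenase, had 236 to 329 CPM (median 267) in Co kidneys, against 213 to 265 CPM (median 243) in Ta kidneys (log2 fold change 0.18 ± 0.10, adjusted p = 0.199). The glucose transporter gene Slc2a1 (-0.17 ± 0.17) and Pgk1 (0.06 ± 0.08) did not pass the test.

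HIF binds the core letters ACGTG or GCGTG. At least 1 of them, on either strand, stood in 13937 of 33469 promoter windows (41.6%), in 11 of the 14 windows of the hypoxia-inducible targets and in 13 of the 17 windows of the glycolytic genes. The windows of both targets that rose and of Ldha, which did not pass the test, are shown in the same way, with the cores in capitals; in Ldha a pair of cores on opposite strands overlaps in CACGTG. The letters were thus present in both targets that rose and in Ldha, which did not pass the test. They also stood in Gapdh and Gpi, which rose, and in Kdm3a and Pfkp, which fell.
Higd1a (chr8:130400839-130401138, minus strand): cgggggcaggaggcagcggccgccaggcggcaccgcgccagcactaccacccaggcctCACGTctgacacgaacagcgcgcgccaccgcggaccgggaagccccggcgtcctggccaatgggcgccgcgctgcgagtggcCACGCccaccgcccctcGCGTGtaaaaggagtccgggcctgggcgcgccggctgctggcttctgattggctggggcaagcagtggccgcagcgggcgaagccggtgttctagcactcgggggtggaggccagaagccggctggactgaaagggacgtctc
Ddit4 (chr20:28436988-28437287, minus strand): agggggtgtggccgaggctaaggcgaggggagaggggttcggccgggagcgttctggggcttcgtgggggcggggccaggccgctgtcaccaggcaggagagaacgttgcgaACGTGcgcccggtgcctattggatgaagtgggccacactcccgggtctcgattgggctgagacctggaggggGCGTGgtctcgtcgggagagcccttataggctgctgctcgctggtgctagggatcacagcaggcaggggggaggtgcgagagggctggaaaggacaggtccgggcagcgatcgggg
Ldha (chr1:106507842-106508141, plus strand): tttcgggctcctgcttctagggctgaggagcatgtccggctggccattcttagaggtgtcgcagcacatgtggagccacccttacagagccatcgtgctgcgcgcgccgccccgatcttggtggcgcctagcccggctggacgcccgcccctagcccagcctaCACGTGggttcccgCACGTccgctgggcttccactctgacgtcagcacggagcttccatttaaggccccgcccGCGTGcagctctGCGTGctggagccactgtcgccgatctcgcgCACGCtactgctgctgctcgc

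Some subunits and regulators of HIF changed. Of 13 such genes 4 rose (30.8%) and 6 fell (46.2%), against 13.6% and 12.2% of all genes tested. Elob, Eloc and Rbx1, small subunits of the ligase that tags HIF, were higher (0.63 ± 0.11, 0.41 ± 0.10 and 0.47 ± 0.08), as was Egln2 (0.20, but at adjusted p-values of 0.0516 to 0.0712 without Co replicate 3, 6 or 8 or Ta replicate 7). The large coactivator gene Ep300 fell (-0.37 ± 0.09, adjusted p = 0.00327), as did Crebbp (-0.46), Arnt2 (-0.92) and Arnt (-0.43 ± 0.11), the shared partner of the HIF subunits. Epas1, which encodes HIF-2α and is high in endothelium and interstitial cells, had 39.3 to 143.6 CPM (median 53.3) in Co kidneys, against 115 to 168 CPM (median 131.5) in Ta kidneys (log2 fold change -0.90 ± 0.26, adjusted p = 0.00882). Hif1a had 46.5 to 62.7 CPM (median 56.5) in Co kidneys, against 56.3 to 80.4 CPM (median 73.9) in Ta kidneys (log2 fold change -0.41 ± 0.14, adjusted p = 0.0298), and its call ended in 9 of the 16 fits without 1 library (adjusted p up to 0.0755, without Ta replicate 2). Egln2, Crebbp, Arnt2, Arnt, Epas1 and Hif1a lie outside the rule for named genes and were chosen after their values were seen. Adjusted for the balance 0 of the 13 genes were called, and without Co replicates 5, 6 and 7 Elob and Rbx1 were. Hif1a (0.0666), Epas1 (0.0605), Arnt (0.0533) and Crebbp (0.0730) also lost the call without Ta replicates 4, 5 and 6.

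**Figure D3:**
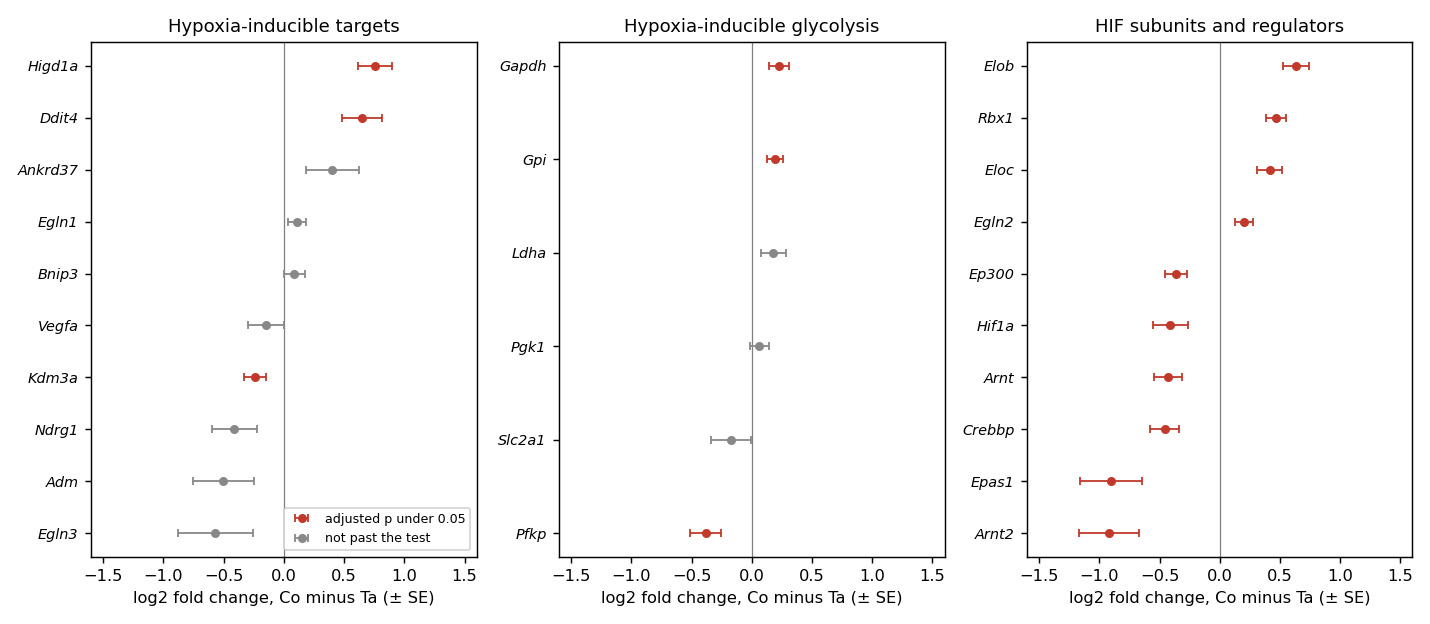
Log2 fold change of Co against Ta (horizontal axis, points, with bars of 1 SE) for the hypoxia-inducible targets, glycolytic genes and HIF subunits and regulators named in the text; red points passed an adjusted p of 0.05, and since unnamed members are left out their share is not that of the whole lists. Higd1a and Ddit4 are the targets that rose, and Vegfa, Adm and Egln3 lie below 0 without passing the test.

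Of 14 cobalamin genes tested 1 rose and 1 fell (7.14% each, median log2 fold change 0.00), against 13.6% and 12.2% of all genes tested. Mmadhc, which sends cobalamin to its target enzymes, had 85.7 to 148 CPM (median 109.6) in Co kidneys, against 71.6 to 102.03 CPM (median 84.9) in Ta kidneys (log2 fold change 0.46 ± 0.11, adjusted p = 0.00206). Lmbrd1, the lysosomal exporter of cobalamin, had 40.2 to 58.7 CPM (median 49.8) in Co kidneys, against 47.7 to 74.03 CPM (median 64.4) in Ta kidneys (log2 fold change -0.33 ± 0.09, adjusted p = 0.00883). The receptor genes Cubn (cubilin) and Amn (amnionless) had log2 fold changes of 0.02 ± 0.12 and 0.38 ± 0.15 (adjusted p = 0.892 and 0.0579). In Amn 7 of 8 Co libraries lay above every Ta library, and the ranges of Cubn overlapped. The carrier gene Tcn2 (-0.50 ± 0.21) and the enzymes that use cobalamin, Mmut (-0.23 ± 0.19) and Mtr (-0.32 ± 0.16), did not pass the test. Mmadhc and Lmbrd1, when those 3 Co libraries were left out, had adjusted p-values of 0.185 and 0.125.

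Of 15 metallothionein and metal transport genes 0 rose and 1 fell (6.67%), against 13.6% higher and 12.2% lower over all genes tested. The metallothionein genes Mt1 and Mt2A, whose products bind metal ions, did not pass the test. Mt1 had 344 ± 98.6 CPM in Co kidneys and 385 ± 67.6 CPM in Ta kidneys, while Mt2A had 587 ± 111 CPM in Co kidneys and 463 ± 79.8 CPM in Ta kidneys (SD, n = 8 each). Their log2 fold changes were -0.16 ± 0.32 (adjusted p = 0.739) and 0.34 ± 0.33 (adjusted p = 0.459), and reads may be shared between such close copies. Slc11a2, the divalent metal transporter that also carries cobalt, had 54.4 to 67.1 CPM (median 61.7) in Co kidneys, against 64.9 to 89.0 CPM (median 77.4) in Ta kidneys (log2 fold change -0.34 ± 0.22, adjusted p = 0.241), with 6 of 8 Co libraries below every Ta library. The copper pump gene Atp7a fell (-0.98 ± 0.33, adjusted p = 0.0263), and its call ended in 6 of the 16 fits without 1 library (up to 0.0669, without Co replicate 5). It stood at 0.357 without Co replicates 5, 6 and 7 and at 0.127 without Ta replicates 4, 5 and 6.

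In iron handling 2 of 15 genes rose and 2 fell, 13.3% each way, near the 13.6% and 12.2% of all genes tested. The ferritin genes Fth1 and Ftl1, which store iron, were the 2 that rose. Fth1 had 4144 ± 787 CPM in Co kidneys and 2902 ± 312 CPM in Ta kidneys, and Ftl1 had 4926 ± 562 CPM in Co kidneys and 3764 ± 503 CPM in Ta kidneys (SD, n = 8 each). Every Co library was above every Ta library in Fth1 (log2 fold change 0.51 ± 0.14, adjusted p = 0.00585), and 5 of 8 were in Ftl1 (0.39 ± 0.10, adjusted p = 0.00478). Ireb2, an iron sensor that blocks ferritin translation, fell (-0.45 ± 0.13, adjusted p = 0.0109), as did Ncoa4, the receptor that sends ferritin to the lysosome (-0.38 ± 0.14, adjusted p = 0.0405). The call of Ncoa4 ended in 12 of the 16 fits without 1 library (up to 0.0953, without Co replicate 6) and without Ta replicates 4, 5 and 6 (0.104). None of the 4 was called without Co replicates 5, 6 and 7, where Fth1 had a log2 fold change of 0.31 (adjusted p = 0.219), Ftl1 0.29 (0.135), Ireb2 -0.43 (0.0777) and Ncoa4 -0.24 (0.401). With the balance as a covariate Fth1 was at 0.08 (0.727) and Ftl1 at 0.18 (0.285). Of 12 genes that make or break down heme 6 rose (50.0%) and 0 fell. Cpox, of the synthesis pathway, had 56.998 to 97.5 CPM (median 73.7) in Co kidneys, against 46.0 to 68.0 CPM (median 51.3) in Ta kidneys (log2 fold change 0.57 ± 0.14, adjusted p = 0.00322). Urod (0.39 ± 0.09) rose too, as did Hmox2, the constitutive heme oxygenase (0.41 ± 0.10), and Blvrb, a biliverdin reductase (0.56 ± 0.11). Hmox1, the heme oxygenase that stress induces, had 1.77 to 13.2 CPM (median 6.20) in Co kidneys, against 1.93 to 17.4 CPM (median 5.30) in Ta kidneys (log2 fold change -0.06 ± 0.51, adjusted p = 0.940) and is named after its values were seen. None of 9 globin and erythroid genes was called. Under the balance covariate 1 heme gene, Hmox2, was called (adjusted p = 0.0464), and without Co replicates 5, 6 and 7 it was Blvrb (0.0114), with Cpox at 0.0946, Urod at 0.0568 and Hmox2 at 0.125.

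Of 15 peroxidases, dismutases and thioredoxins 9 rose (60.0%) and 0 fell. Sod1, the copper and zinc superoxide dismutase, had 693 to 1048 CPM (median 789.9) in Co kidneys, against 349 to 563 CPM (median 517) in Ta kidneys, without overlap (log2 fold change 0.82 ± 0.14, adjusted p = 6.05e-05). Txn1, thioredoxin, had 270.2 to 498 CPM (median 344) in Co kidneys, against 179.5 to 257 CPM (median 230.4) in Ta kidneys, without overlap (log2 fold change 0.73 ± 0.12, adjusted p = 4.67e-05). Prdx1 (0.60 ± 0.11) and Gpx4 (0.56 ± 0.12), which reduce hydrogen peroxide and lipid peroxides, rose as well. Sod1 and Txn1 kept the call without Co replicates 5, 6 and 7, while Prdx1 (0.0609) and Gpx4 (0.0944) lost it. With the balance as a covariate Sod1 was the member called (adjusted p = 0.0220). Of 19 genes of the NRF2 and glutathione response 3 rose (15.8%) and 1 fell (5.26%), against 13.6% and 12.2% of all genes tested. Gss, glutathione synthetase, had 653 to 1592 CPM (median 1057) in Co kidneys, against 297 to 873 CPM (median 674) in Ta kidneys (log2 fold change 0.75 ± 0.24, adjusted p = 0.0161). Gstp1 (0.66 ± 0.18) and Gsta4 (0.59 ± 0.18), glutathione transferases, rose, and the exporter gene Abcc4 fell (-0.54 ± 0.17, but adjusted p = 0.0522 without Co replicate 5 and 0.0609 without Ta replicate 4). None of the 4 was called without Co replicates 5, 6 and 7, and Gss (0.112), Gsta4 (0.0860) and Abcc4 (0.135) were not without Ta replicates 4, 5 and 6.

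The best known genes of tubular injury, Havcr1 and Lcn2, did not pass the test. Havcr1 (KIM-1), a marker of the injured proximal tubule, had 7.23 to 65.1 CPM (median 23.98) in Co kidneys, against 3.86 to 97.5 CPM (median 20.5) in Ta kidneys (log2 fold change -0.18 ± 0.73, adjusted p = 0.874). Lcn2 (NGAL) had 8.998 to 72.8 CPM (median 14.8) in Co kidneys, against 5.10 to 124.8 CPM (median 13.4) in Ta kidneys (log2 fold change -0.43 ± 0.94, adjusted p = 0.764). In both genes the Co range lay within the Ta range, whose highest value was that of Ta replicate 4. The Co range also lay within the Ta range in Spp1 (-0.37 ± 0.59), Clu (-0.22 ± 0.49) and Timp1 (-0.40 ± 0.55), with adjusted p-values of 0.664, 0.764 and 0.620. Of 16 injury and repair genes 1 rose, Krt19 (0.55 ± 0.20, adjusted p = 0.0320), and 1 fell, the adhesion molecule gene Vcam1 (-1.12 ± 0.40, adjusted p = 0.0361). These shares of 6.25% each, and those of the p53 and proliferation lists below, stand beside 13.6% higher and 12.2% lower over all genes tested. The call of Krt19 ended without Co replicates 5, 7 or 8 in turn (0.0856, 0.0540 and 0.0760), and that of Vcam1 in 8 of the 16 fits without 1 library (up to 0.144, without Ta replicate 4). With the balance as a covariate 0 of the 16 were higher and 6 lower, where 1.78% of all genes tested were higher and 1.49% lower. Among the 6 were Lcn2 (-3.15, adjusted p = 0.0319), Spp1 (-1.99), Clu (-1.58) and Timp1 (-1.82). Without Ta replicates 4, 5 and 6 the log2 fold change of Havcr1 was 1.11 and that of Lcn2 1.29 (adjusted p = 0.388 and 0.448). Of 14 p53 targets 1 rose (7.14%), Bax, a promoter of apoptosis. Bax had 45.3 to 66.8 CPM (median 50.7) in Co kidneys, against 25.3 to 42.0 CPM (median 33.4) in Ta kidneys and no overlap (log2 fold change 0.63 ± 0.11, adjusted p = 9.19e-05). Bax kept its call without Co replicates 5, 6 and 7, while Krt19 was then at 0.298 and Vcam1 at 0.385. Vcam1 was at 0.410 without Ta replicates 4, 5 and 6. Of 15 proliferation genes 1 rose and 1 fell (6.67% each). Rrm2, a subunit of ribonucleotide reductase, had the smallest p (-1.26 ± 0.48, adjusted p = 0.0463). Its call ended in 10 of the 16 fits without 1 library (up to 0.151, without Ta replicate 4), and without the 3 Co or the 3 Ta libraries (0.152 and 0.269).

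Some genes of glomeruli, vessels and matrix fell, where 12.2% of all genes tested were lower. Of 17 podocyte genes 8 fell (47.1%, median log2 fold change -0.72), of 17 endothelial genes 5 (29.4%, median -0.76), of 15 genes of mural cells and fibroblasts 9 (60.0%, median -0.95) and of 30 matrix genes 17 (56.7%, median -1.08), and 0 rose. Notch3, a receptor of pericytes and smooth muscle, had 5.93 to 23.5 CPM (median 16.04) in Co kidneys, against 23.4 to 33.3 CPM (median 30.3) in Ta kidneys (log2 fold change -0.95 ± 0.20, adjusted p = 0.000852). Acta2, smooth muscle actin, had 10.2 to 66.0 CPM (median 33.8) in Co kidneys, against 60.0 to 89.7 CPM (median 70.2) in Ta kidneys (log2 fold change -0.93 ± 0.26, adjusted p = 0.00829), and Tagln (-1.24 ± 0.29) and Rgs5 (-1.48 ± 0.40) fell too. In Notch3, Acta2 and Rgs5, 7 of 8 Co libraries were under the whole Ta range. Tie1, an endothelial receptor, had 19.5 to 69.2 CPM (median 38.8) in Co kidneys, against 43.9 to 84.5 CPM (median 69.6) in Ta kidneys (log2 fold change -0.72 ± 0.22, adjusted p = 0.0137). Ehd3 (-0.68 ± 0.21), a marker of glomerular endothelium, Erg (-1.11 ± 0.36) and Eng (-0.998 ± 0.34) fell as well. Erg was at an adjusted p of 0.0745 without Ta replicate 3, and Eng at 0.0669, 0.0642 and 0.0598 without Co replicates 5, 6 and 7 in turn and 0.0578 without Ta replicate 4.

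Among podocyte genes Col4a5, a collagen chain of the glomerular basement membrane, had 34.2 to 59.6 CPM (median 48.3) in Co kidneys, against 57.1 to 81.95 CPM (median 76.4) in Ta kidneys (log2 fold change -0.55 ± 0.11, adjusted p = 0.000273). Actn4 (-0.36 ± 0.09), an actin crosslinker that many cells make, and Plce1 (-0.72 ± 0.18) fell too, with 7 and 6 of the 8 Co libraries under the whole Ta range. Among matrix genes Thbs1, which activates TGF-β, had 15.1 to 66.8 CPM (median 35.2) in Co kidneys, against 64.2 to 159.5 CPM (median 84.8) in Ta kidneys (log2 fold change -1.15 ± 0.27, adjusted p = 0.00224). Bgn, the proteoglycan biglycan, had 18.04 to 104.2 CPM (median 36.1) in Co kidneys, against 56.4 to 224 CPM (median 83.6) in Ta kidneys (log2 fold change -1.15 ± 0.30, adjusted p = 0.00477). Fibronectin (Fn1, -1.08 ± 0.32) and the main chain of collagen I (Col1a1, -1.204 ± 0.38) fell with all libraries, but without Ta replicate 4 their adjusted p-values were 0.107 and 0.0786. Thbs1 and Bgn kept the call without that library, at log2 fold changes of -0.945 (adjusted p = 0.0104) and -0.839 (0.0299). Without Ta replicates 4, 5 and 6 Thbs1 was at -0.91 (0.0300) and Bgn at -0.62 (0.162).

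The number of calls in these 4 lists depended on few libraries. Without Ta replicate 4 the matrix count was 3 of 30, the mural count 7 and the endothelial count 3. Without Co replicates 5, 6 and 7 the counts were 2 podocyte genes (Cd2ap and Col4a5), 0 endothelial, 0 mural and 0 matrix genes, where 0.880% of all genes were called lower. Their medians were then -0.47, -0.36, -0.58 and -0.61. Without Ta replicates 4, 5 and 6 the counts were 5, 2, 3 and 2, and the calls of Erg (0.0881), Eng (0.134), Tagln (0.0906), Acta2 (0.0518), Fn1 (0.521) and Col1a1 (0.381) were among those that ended. In the fits without 1 library the podocyte count ran from 5 (without Co replicate 6) to 13 (without Co replicate 2), and the endothelial count from 3 (without Co replicate 5) to 11 (without Co replicate 2). Averaged over the podocyte list, log2 CPM lay under the Ta range in 7 of 8 Co libraries. The means of the mural and matrix lists lay under it in 7 and 6 of 8. That of endothelial markers did so in 6 of 8, with Co replicate 1 within the Ta range and Co replicate 2 at its upper end.

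**Figure D4:**
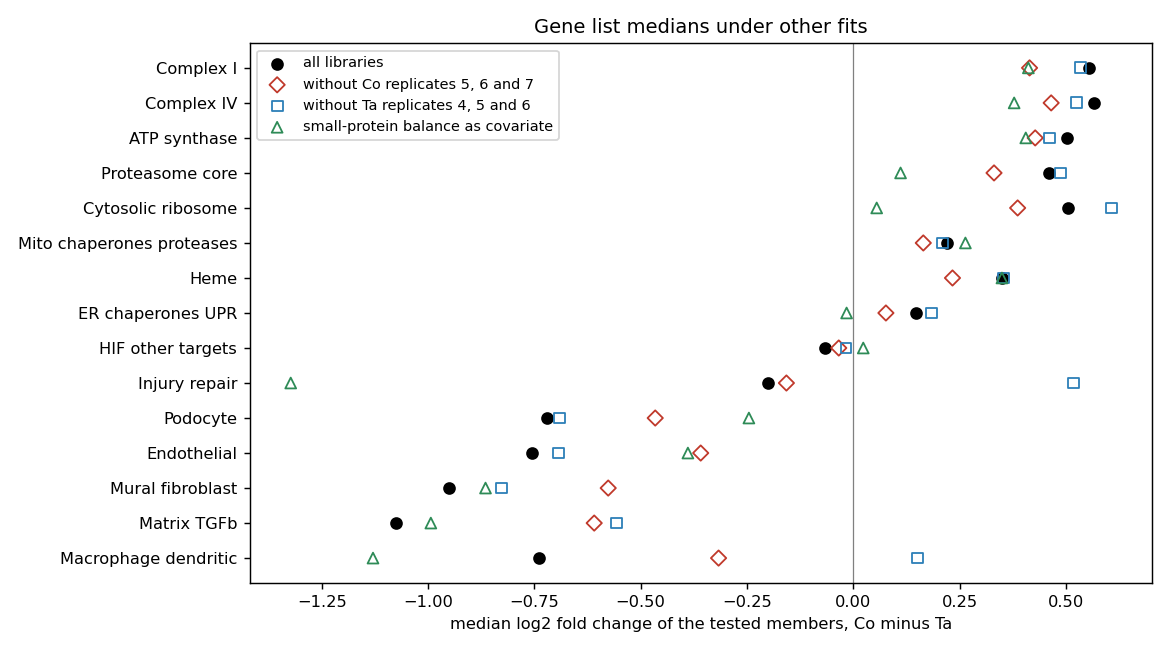
Median log2 fold change (horizontal axis) of the tested members of 15 gene lists with all libraries, without Co replicates 5, 6 and 7, without Ta replicates 4, 5 and 6, and adjusted for the balance of small and large proteins. The medians of the respiratory complexes stay near 0.4 to 0.6, those of podocyte, endothelial, mural and matrix lists move towards 0 without the 3 Co libraries, and those of the injury and macrophage lists turn positive without the 3 Ta libraries.

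Tubule segments showed calls in both directions, with shares to be read against the 13.6% higher and 12.2% lower over all genes tested. Of 20 early proximal tubule (S1 and S2) markers 2 rose, the urate transporter gene Slc22a12 and the cystine transporter gene Slc3a1. Slc22a12 had 837 to 1564 CPM (median 1069) in Co kidneys, against 411 to 988 CPM (median 808) in Ta kidneys (log2 fold change 0.58 ± 0.19, adjusted p = 0.0207), but 0.0527 without Co replicate 5 and 0.0536 without Co replicate 7. Slc3a1 (0.68 ± 0.25, adjusted p = 0.0397) lost its call in 6 of the 16 fits without 1 library (up to 0.0961, without Co replicate 7). The mean log2 CPM of the whole S1 and S2 list was 7.40 to 9.36 in Co and 8.54 to 8.88 in Ta, under the Ta range in 6 of 8 Co libraries and over it in Co replicate 2. The summed level was not lower, with 18532 to 30433 CPM in Co and 16399 to 25727 CPM in Ta. None of 8 S3 markers was called (median log2 fold change 0.57). In the thick ascending limb 2 of 10 fell, Slc12a1, the salt transporter that loop diuretics block (-0.72 ± 0.26, adjusted p = 0.0365), and the prostaglandin receptor gene Ptger3 (-0.44 ± 0.15, adjusted p = 0.0279). Their calls ended in 9 and 6 of the 16 fits without 1 library (up to 0.0958 and 0.0982, both without Ta replicate 2). None of these 4 tubule genes was called without Co replicates 5, 6 and 7 (adjusted p = 0.361, 0.485, 0.392 and 0.392), and Ptger3 was the one called without Ta replicates 4, 5 and 6.

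Further along the nephron, the distal tubule magnesium channel gene Trpm7 had 54.6 to 82.2 CPM (median 76.3) in Co kidneys, against 87.6 to 127.04 CPM (median 105) in Ta kidneys, without overlap (log2 fold change -0.55 ± 0.12, adjusted p = 0.00101). It is made in many cell types, and the other 8 distal convoluted tubule markers did not pass the test, though all 9 had negative log2 fold changes (median -0.55). Nr3c2, the mineralocorticoid receptor, was the 1 of 11 principal cell markers that fell (-0.74 ± 0.22, adjusted p = 0.0132). Of 12 intercalated cell markers 2 rose (16.7%), among them the proton pump subunit gene Atp6v1g3 with 115 to 272 CPM (median 182) in Co kidneys, against 99.9 to 148 CPM (median 114) in Ta kidneys (log2 fold change 0.65 ± 0.19, adjusted p = 0.0120). Of 11 medullary and osmolyte genes 1 rose (9.09%) and 3 fell (27.3%). Slc6a6, the taurine transporter, had 12.03 to 33.2 CPM (median 28.5) in Co kidneys, against 31.5 to 58.9 CPM (median 40.9) in Ta kidneys (log2 fold change -0.78 ± 0.17, adjusted p = 0.00122), and Nfat5, the transcription factor of the response to salt, fell too (-0.73 ± 0.21). Hsd11b1, which makes active glucocorticoid, rose (0.73 ± 0.18, adjusted p = 0.00299). In vitamin D, calcium and phosphate handling 1 of 16 rose and 3 fell (18.8%). S100g, the calcium carrier calbindin-D9k, had 1.51 to 6.56 CPM (median 4.57) in Co kidneys, against 1.04 to 3.29 CPM (median 1.80) in Ta kidneys (log2 fold change 1.21 ± 0.31, adjusted p = 0.00450), and it kept the call without Co replicates 5, 6 and 7. The vitamin D receptor gene Vdr fell (-0.77 ± 0.25, adjusted p = 0.0183, but 0.0511 without Co replicate 5), as did the phosphate transporter gene Slc20a2 (-0.37 ± 0.13, ended in 8 of the 16 fits without 1 library, up to 0.125 without Ta replicate 2) and the calcium pump gene Atp2b1 (-0.25, ended in 12 of the 16, up to 0.159 without Ta replicate 2). Trpm7 (0.0452) was the other gene of this paragraph called without Co replicates 5, 6 and 7. Nr3c2 (0.254), Atp6v1g3 (0.117), Slc6a6 (0.0584), Nfat5 (0.176), Hsd11b1 (0.175), Vdr (0.332), Slc20a2 (0.176) and Atp2b1 (0.226) were not, and Vdr was at 0.0528 without Ta replicates 4, 5 and 6. None of 9 renin and angiotensin genes was called.

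Immune markers were uneven within Ta, and their shares of calls stand beside 13.6% higher and 12.2% lower over all genes tested. Of 15 macrophage and dendritic markers 0 rose and 1 fell, the pan-leukocyte gene Ptprc (CD45), with 1.03 to 20.4 CPM (median 4.398) in Co kidneys, against 7.995 to 53.5 CPM (median 12.4) in Ta kidneys (log2 fold change -1.26 ± 0.44, adjusted p = 0.0294). Its call ended in 7 of the 16 fits without 1 library (up to 0.174, without Ta replicate 4). Summed over the list, macrophage markers made up 71.2 to 449 CPM in Co and 149 to 837 CPM in Ta. In T and NK cells 2 of 14 fell, the killing genes Prf1 (-2.16 ± 0.70, adjusted p = 0.0192, 0.0598 without Ta replicate 4) and Klrd1 (-2.19 ± 0.79, ended in 7 of the 16 fits without 1 library, up to 0.0833 without Ta replicate 4). Their medians lay under 1 CPM in both groups. In antigen presentation 2 of 14 fell (14.3%). Cd74, the invariant chain, had 273 to 655 CPM (median 385) in Co kidneys, against 475 to 1358 CPM (median 668) in Ta kidneys (log2 fold change -0.80 ± 0.21, adjusted p = 0.00497), and RT1-Da, a rat class II gene, fell too (-0.76 ± 0.25). Without Ta replicate 4 RT1-Da was at 0.170, without Ta replicate 6 at 0.0673 and without Co replicates 5 and 6 in turn at 0.0589 and 0.0602. Cd74 was at -0.571 (adjusted p = 0.0337) without Ta replicate 4 and at -0.43 (0.170) without Ta replicates 4, 5 and 6. Of 17 interferon genes 3 fell (17.6%), with Ifit2 at 0.168 to 4.94 CPM (median 1.68) in Co kidneys, against 3.25 to 9.67 CPM (median 6.06) in Ta kidneys (log2 fold change -1.49 ± 0.38, adjusted p = 0.00446). Of 12 complement genes 2 fell (16.7%), among them Cd55 (-0.75 ± 0.26, ended in 9 of the 16 fits without 1 library, up to 0.0736 without Co replicate 7). In B and plasma cells 1 of 8 markers rose, Mzb1 (1.25 ± 0.44, adjusted p = 0.0324), whose highest value was Co replicate 5 and which stood at 0.122 without it, 0.0603 without Co replicate 7 and 0.0592 without Ta replicate 7. Without Ta replicate 4 the interferon, antigen presentation and complement lists each had 1 gene lower, and the macrophage and T and NK lists 0. In the fit without the 3 Co libraries no gene of these 6 lists was called, with Ptprc at 0.339, Prf1 at 0.206, Klrd1 at 0.284, Cd74 at 0.151, RT1-Da at 0.290, Ifit2 at 0.105, Cd55 at 0.249 and Mzb1 at 0.374. Leaving out Ta replicates 4, 5 and 6 ended the calls of Ptprc (0.610), Prf1 (0.301), Klrd1 (0.191), RT1-Da (0.657) and Mzb1 (0.0919) as well.

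Markers of tissues that lie against the kidney were read as well, with shares to be read against 13.6% higher and 12.2% lower over all genes tested. Of 8 adipocyte markers 2 rose, Adipoq (0.53 ± 0.19) and Cidec (0.76 ± 0.29), with adjusted p-values of 0.0314 and 0.0491. Adipoq was at 0.0538 without Co replicate 1, 0.0848 without Co replicate 7 and 0.0537 without Ta replicate 3, and the call of Cidec ended in 10 of the 16 fits without 1 library (up to 0.117, without Co replicate 7). The list summed to 1180.2 to 2454 CPM in Co and 1489 to 2451 CPM in Ta. Adrenal cortex markers summed to 32.2 to 52.9 CPM in Co and 16.8 to 33.0 CPM in Ta, and 1 of 5 rose, Hsd3b1, with 22.9 to 46.1 CPM (median 34.5) in Co kidneys, against 7.27 to 24.2 CPM (median 17.4) in Ta kidneys (log2 fold change 1.07 ± 0.30, adjusted p = 0.00739). Urothelial markers, of which 0 of 7 were called, summed to 6.64 to 37.3 CPM in Co and 6.98 to 39.5 CPM in Ta. Adipoq, Cidec and Hsd3b1 were at 0.175, 0.682 and 0.1001 without Co replicates 5, 6 and 7, and at 0.0537, 0.216 and 0.0743 without Ta replicates 4, 5 and 6. The part that other tissues had in the results above was not tested.

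Metabolic and rhythmic genes had shares of calls on both sides of the 13.6% higher and 12.2% lower over all genes tested. Of 16 fatty acid oxidation genes 2 rose (12.5%) and 1 fell (6.25%). Those that rose were the acyl-CoA dehydrogenase genes Acadl (0.39 ± 0.10, adjusted p = 0.00257) and Acadvl (0.32 ± 0.09, adjusted p = 0.0109). Cpt1a, the gate of fatty acids into mitochondria, fell (-0.58 ± 0.18, adjusted p = 0.0177, but 0.0504 without Co replicate 6 and 0.0610 without Ta replicate 1). Of 14 cholesterol genes 3 fell (21.4%) and 0 rose, among them Hmgcs1, an enzyme early in cholesterol synthesis, at 7.50 to 24.2 CPM (median 16.5) in Co kidneys, against 18.5 to 30.4 CPM (median 21.6) in Ta kidneys (log2 fold change -0.48 ± 0.15, adjusted p = 0.0163). Its adjusted p was 0.0543 without Co replicate 5 and 0.0513 without Ta replicate 2 or 6. Of 14 retinoid genes 1 rose and 1 fell (7.14% each). Rbp4, the carrier of retinol in blood, had 42.9 to 274 CPM (median 124.4) in Co kidneys, against 18.3 to 98.9 CPM (median 57.8) in Ta kidneys (log2 fold change 1.41 ± 0.43, adjusted p = 0.0151). Aldh1a2, which makes retinoic acid, had 2.02 to 7.42 CPM (median 4.41) in Co kidneys, against 5.06 to 13.8 CPM (median 9.17) in Ta kidneys (log2 fold change -1.03 ± 0.28, adjusted p = 0.00694). Of 16 clock genes Clock (-0.87 ± 0.26) and Nr1d2 (-0.62 ± 0.21) fell (12.5%) and Cry1 rose (0.71 ± 0.22); the hour at which each rat was killed is not given in the sources used here. Nr1d2 lost its call without Co replicate 7, Ta replicate 2 or Ta replicate 3 (up to 0.0632). Of 12 immediate early genes 1 rose, Jun (0.50 ± 0.19, ended in 8 of the 16 fits without 1 library, up to 0.206 without Co replicate 7). None of the genes of this paragraph was called without Co replicates 5, 6 and 7, with adjusted p-values from 0.124 (Aldh1a2) to 0.548 (Jun). Leaving out Ta replicates 4, 5 and 6 ended the calls of Acadvl (0.0619), Aldh1a2 (0.145), Rbp4 (0.102) and Nr1d2 (0.0602).

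**Figure D5:**
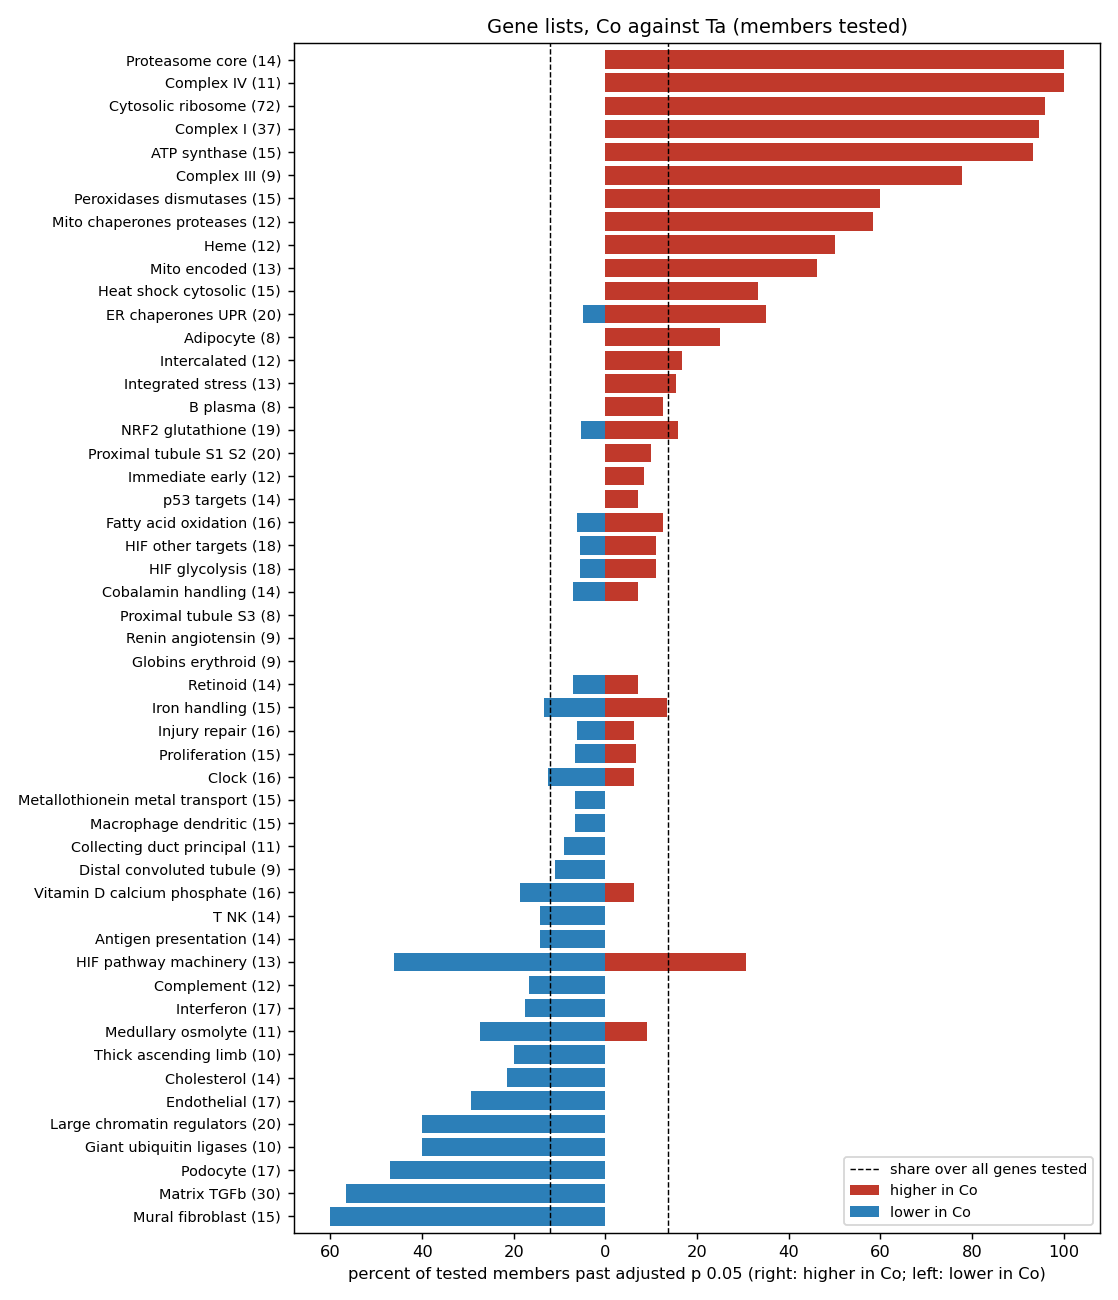
Percent of the tested members of each gene list past an adjusted p of 0.05, higher in Co to the right and lower in Co to the left, with the number tested in brackets; lists with under 8 tested members are left out. Dashed lines mark the shares over all genes, 13.6% higher and 12.2% lower, and the respiratory, ribosomal and proteasome lists reach furthest to the right while mural, matrix and podocyte lists reach furthest to the left.

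Set against Al, W and the mean of the 4 other metals, few Co differences passed the test. Co was not tested against Pb or DU alone, and a mean over metals that lie on both sides of Co can hide differences from each. Against Al, edgeR called 0 of 15868 genes (1196, or 7.54%, at an unadjusted p under 0.05; DESeq2 called 26), and against W it called 0 (1460 at an unadjusted p under 0.05; DESeq2 called 6). Against the mean of W, Al, Pb and DU it called 1 gene (0.0063%; 2074 at an unadjusted p under 0.05; DESeq2 called 105). That gene was Eif5b, which joins the ribosomal subunits at the start of translation. It had 152 to 249.6 CPM (median 199) in Co, 153 to 229 (174) in W, 102.2 to 167 (125.8) in Al, 108 to 239 (147) in Pb, 78.1 to 117 (101.2) in DU and 149 to 221 CPM (159) in Ta. The log2 difference from the mean of the 4 metals was 0.55 ± 0.10 (adjusted p = 0.0236), and 0 genes were called without Co replicate 5, 6 or 7 in turn, against 22 without Co replicate 8. Relative to Ta the log2 fold change of Eif5b in Co was 0.21 ± 0.13 and did not pass the test (adjusted p = 0.231). Side by side, the values over Ta were 0.05 in W, -0.44 in Al, -0.18 in Pb and -0.81 in DU.

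Other genes with small p against the 4 metals did not pass the adjusted threshold and are given as values. Ywhae, a 14-3-3 adaptor protein, had medians of 281 CPM in Co, 291 in W, 242 in Al, 204 in Pb, 243 in DU and 289 CPM in Ta. Iars2, the mitochondrial isoleucine tRNA ligase, had 94.1 CPM in Co, 95.0 in W, 83.3 in Al, 77.1 in Pb, 73.9 in DU and 97.7 CPM in Ta. In both, Co was beside Ta and W. Plec, the cytoskeletal linker plectin, had 113 CPM in Co, 120.4 in W, 149.6 in Al, 150.03 in Pb, 171 in DU and 148 CPM in Ta, so Co was the lowest median, and against Ta its log2 fold change was -0.42 ± 0.10 (adjusted p = 0.00196). Aoah, which inactivates bacterial endotoxin, and Senp6, a SUMO protease, were higher in Co than in Ta (0.51 ± 0.17 and 0.16 ± 0.05). Their calls ended without Co replicate 6 (0.0793 and 0.0828) and Co replicate 7 (0.104 and 0.0993), and that of Aoah also without Co replicate 5 (0.0528). Dipk1b was lower (-0.55 ± 0.18, ended in 8 of the 16 fits without 1 library, up to 0.0751 without Co replicate 5). Plec, Aoah, Senp6 and Dipk1b were at 0.0673, 0.801, 0.570 and 0.272 without Co replicates 5, 6 and 7, and at 0.0678, 0.0946, 0.0598 and 0.182 without Ta replicates 4, 5 and 6.

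The comparisons of each metal with Ta share the 8 Ta libraries, so their values are only set side by side. Tomm7 had a log2 fold change over Ta of 1.01 in Co, 0.57 in W, 1.55 in Al, 2.11 in Pb and 1.45 in DU. Rps28 had 1.06 in Co, 0.61 in W, 1.75 in Al, 2.49 in Pb and 1.94 in DU. Higd1a had 0.76 in Co, 0.60 in W, 1.32 in Al, 1.81 in Pb and 1.23 in DU, and Ddit4 0.65, 0.60, 0.55, 0.96 and 0.70 in that order. In Tomm7, Rps28 and Higd1a the Co value was above that of W and below those of Al, Pb and DU, while in Ddit4 it was also above that of Al. Among lower genes, Cd2ap had -0.64 in Co, -0.25 in W, -0.54 in Al, -1.10 in Pb and -0.33 in DU. Cavin1 had -1.01 in Co, -0.76 in W, -0.94 in Al, -1.44 in Pb and -0.14 in DU. Vegfa had -0.15 in Co, -0.14 in W, -0.23 in Al, -0.37 in Pb and -0.36 in DU.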

How the data were processed

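Total RNA was taken from rat kidneys and sequenced, and a single table of raw counts per gene for all 47 libraries was deposited by the authors. Reads had been aligned with STAR 2.7.2a and counted with featureCounts of Subread 1.6.4 on the build mRatBN7.2, per the submitters' processing notes. The annotation, the strand setting and the treatment of reads that match several places are not given in the sources used here. Lines of 5 very long genes that could not be read as whole records were left out, 29 lines in all, which left 22525 genes, of which 82.8% of symbols matched the RefSeq gene table. Libraries were matched to metals by the labels, and 0 value columns lacked a sample.

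Genes were filtered with filterByExpr, scaled with TMM factors and tested with edgeR 4.0.16 (R 4.3.3, limma 3.58.1) by the quasi-likelihood F test in 1 fit over all 47 libraries, with the contrast of Co minus Ta and Benjamini-Hochberg adjustment over 15868 genes. The same kind of fit was also run on simulated counts. Levels are CPM over TMM-scaled totals, and log2 CPM used a prior count of 2. Alternatives were DESeq2 1.42.0, other scaling, filters, samples and covariates, and leaving out each of the 16 libraries. The fit without Co replicates 5, 6 and 7 was chosen after seeing the data. No 2 libraries of a group were copies: counts of the 56 pairs differed by a chi-square of at least 18.5 per degree of freedom. Replicate numbers did not pair the libraries, as the correlation of same-numbered libraries was at most 0.0981.

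The genes named are the 10 higher and 10 lower with the smallest p, the 10 and 10 with the largest change among those without overlap, genes with the smallest p against the mean of the 4 other metals, and up to 4 members with the smallest p from each of 54 lists. Genes of the first 3 kinds had a mean of at least 1 CPM over the 16 libraries, list members need not, and in 5 lists (hypoxia-inducible targets, glycolysis, cobalamin, metal transport, injury) any member could be named. Some genes these rules name are not reported here. The groups compared and the lists were chosen with earlier results of these data known. Promoter windows came from RefSeq (build GRCr8), and these coordinates are not on the build of the counts.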

Additional observations from a re-analysis of the deposited data

Results flagged for a closer look

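In 37 of 390 groups of 8 libraries checked for the genes named, the highest or lowest library stood farther from its nearest neighbour than Dixon's 95% critical value of 0.526 of the group's range allows; chance flags about 1 in 20 groups. Values are CPM, with that of the nearest other library of the group after each.

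Among Co libraries, replicate 8 was highest in the injury genes Lcn2 (72.8, next 26.5), Spp1 (4098, next 2179.9) and Timp1 (24.8, next 14.7). Co replicate 2 was highest in Ndrg1 (1084, next 687) and Abcc4 (80.3, next 47.7) and was the library with Epo reads (0.223, the others 0). Co replicate 5 was highest in the plasma cell gene Mzb1 (6.49, next 3.63).

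Among Ta libraries, replicate 4 held 17 of the flags. It was highest in the injury genes Lcn2 (124.8, next 46.7), Clu (1473, next 639), Timp1 (40.6, next 20.4) and Krt19 (73.2, next 49.6). It was also highest in the matrix and smooth muscle genes Acta2 (89.7, next 73.9), Thbs1 (159.5, next 103.6), Bgn (224, next 127.4), Fn1 (258, next 139.2), and in the immune genes Ptprc (53.5, next 29.04) and Cd74 (1358, next 858). The same library was highest in Adm (12.6, next 9.16), Tcn2 (118, next 94.7), Hmox1 (17.4, next 8.69) and Epo (0.107, the others 0), and lowest in Senp6 (100.3, next 110.2), Cidec (10.6, next 37.2) and Ndufs1 (212, next 292).

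The other Ta flags were spread over libraries. Ta replicate 7 was highest in ND6 (1665, next 1222), ATP6 (25194, next 18484) and Gpx4 (626, next 504) and lowest in Proser1 (15.0, next 21.0). Ta replicate 3 was highest in Creld2 (47.7, next 38.8), Xbp1 (137.7, next 118) and Mzb1 (2.61, next 1.22) and lowest in Adipoq (6.05, next 10.6). Ta replicate 5 was highest in Cpox (68.0, next 53.2) and lowest in Hif1a (56.3, next 70.3). Ta replicate 8 was highest in Tomm7 (44.2, next 33.8), Ta replicate 2 in Clic5 (12.3, next 9.55) and Ta replicate 1 in Cpt1a (153, next 117).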

How the results depend on the processing

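Between Co and Ta 4089 genes were called (13.6% of genes tested higher and 12.2% lower). With the balance of small and large proteins as a covariate 520 were called (1.78% higher and 1.49% lower), without Co replicates 5, 6 and 7 670 (3.27% higher and 0.88% lower) and without Ta replicates 4, 5 and 6 2669 (5.81% lower); 390, 654 and 2424 of these were among the 4089 in the same direction. Leaving out 1 library gave 3036 to 4812 genes called, 10.9 to 15.4% higher and 7.80 to 14.9% lower. Against Al, where edgeR called 0, DESeq2 called 26, the balance fit 15 and the fit without Co replicates 5, 6 and 7 called 3, and each fit without 1 library 0. Against W, DESeq2 called 6, and each fit without 1 library 0. Against the mean of W, Al, Pb and DU, with 1 called, DESeq2 called 105, the fit of only these groups 9, the balance fit 22, the stricter filter 8, the fit without Co replicates 5, 6 and 7 called 6, that without Ta replicates 4, 5 and 6 called 2, and fits without 1 library 0 to 22. Of 159 called genes among the 194 named or listed with a value, 119 kept the call without any 1 library and 40 lost it at least once. The call was kept by 49 with the balance covariate and by 58 without Co replicates 5, 6 and 7, and it was lost by 45 without Ta replicates 4, 5 and 6, 24 when only the groups compared were fitted, 7 without the filter, 3 with the stricter filter, and 2 each with DESeq2 and RLE factors. The 49 include ribosomal protein genes, of which the balance itself is made. With the balance covariate the log2 fold change of Gapdh was -0.015 (adjusted p = 0.92) and that of Slc12a1 0.013 (adjusted p = 0.98), both of opposite sign to the value without it; the cause was not tested. With the replicate number as a block, 2149 genes were higher and 2139 lower, 5 of the called named genes lost the call, and the podocyte count was 12 of 17 and the endothelial and mural counts 11 each; the numbers did not pair the libraries (same-numbered correlation median -0.0959, 8 pairs). Low counts limit genes such as Prf1, Klrd1 and Epo, where differences were not detectable at this depth or rest on few reads.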
